A study of Mus musculus with 12 samples.

Results

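The 2 arrays described here carried the lowest Tet1 signal of the 12 expression arrays in the series, and each was compared with the control array hybridised on its own slide. They were chosen by their Tet1 signal and not by their label: on each, the log2 signal of Tet1 probe A_55_P2122997 lay more than 1.5 below the mean of the control (EGFP KD) arrays. The rule picked the array labelled Tet1 KD replicate 2 (1.81 below that mean) and the array labelled Mbd2 KD replicate 1 (1.79 below it). The next array, labelled Dnmt1 KD replicate 2, lay 0.89 below and was not picked. Labels stay as deposited throughout, and because they differ the 2 arrays are never averaged or treated as replicates of one condition. Each comparison is 1 array against 1 array, so every difference below is a description without a test or an error, and the low Tet1 itself is what the rule used.

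Tet1 is a dioxygenase that oxidises 5-methylcytosine to 5-hydroxymethylcytosine, a step on the way to DNA demethylation. Its CXXC domain binds CpG-rich DNA, and it is abundant in embryonic stem (ES) cells, where Tet2 is expressed too. Dnmt1 copies methylation after replication, whereas Mbd2 and Mbd3 belong to the methyl-CpG-binding domain family and to separate forms of the NuRD complex, whose remodelling ATPase is Chd4.

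All samples were E14 mouse ES cells grown without feeders on gelatin, in serum and LIF, and transfected with esiRNAs (short RNAs made by enzymatic digestion of long double-stranded RNA). RNA was taken 48 hr later from cells treated against EGFP, Dnmt1, Tet1, Mbd3, Mbd2 or Chd4, with 2 arrays for each. An esiRNA against EGFP was given to the control cells, which therefore went through the same transfection. Such a transient KD leaves residual transcript, and a bulk array cannot tell fewer cells expressing a gene from less RNA per cell. By the slide number in the scanner output, 4 arrays shared each of 3 slides. Slide 1 held EGFP KD replicate 1 with the first arrays of Mbd2, Dnmt1 and Mbd3 KD, slide 2 held EGFP KD replicate 2 with both Tet1 KD arrays and Chd4 KD replicate 1, and slide 3 held no control. Levels are log2 of the processed intensity over the array's 75th percentile, so 0 is the 75th percentile and -4.86 is the floor set for dim spots. The 75th percentile lay between 1784 and 2452 intensity units, and the share of probes well above background ran from 76.9% to 95.2%. On probes spotted 5 times or more, the spots of 1 array had a median SD between 0.16 and 0.26 log2. The number of arrays limits the precision.

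Since Tet1 protein binds CpG-rich DNA, the promoters of Tet1, of 3 genes that stood lower on both arrays (Ankrd37, Gdf1 and Krt42) and of App, which stood higher on both, are printed here with every CG in capitals. They are 300-base RefSeq windows of GRCm38.p6, from 250 bases before to 50 after the annotated start, 5′ to 3′ on the gene's strand.
Tet1 (minus strand, chr10:62887275-62887574), 17 CG: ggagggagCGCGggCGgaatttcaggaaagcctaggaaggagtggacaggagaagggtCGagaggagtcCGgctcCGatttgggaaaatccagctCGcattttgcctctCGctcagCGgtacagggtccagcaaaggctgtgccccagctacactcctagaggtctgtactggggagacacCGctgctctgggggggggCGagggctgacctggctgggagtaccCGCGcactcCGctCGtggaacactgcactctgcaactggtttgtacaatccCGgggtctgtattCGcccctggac
Ankrd37 (minus strand, chr8:45999801-46000100), 24 CG: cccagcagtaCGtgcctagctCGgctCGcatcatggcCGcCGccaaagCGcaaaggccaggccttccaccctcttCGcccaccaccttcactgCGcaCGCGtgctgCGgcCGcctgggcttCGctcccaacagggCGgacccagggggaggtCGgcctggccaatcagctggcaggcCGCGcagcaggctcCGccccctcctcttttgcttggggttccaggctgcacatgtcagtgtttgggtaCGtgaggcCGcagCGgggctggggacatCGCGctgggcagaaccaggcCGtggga
Gdf1 (plus strand, chr8:70315525-70315824, 1 of 2 annotated starts), 22 CG: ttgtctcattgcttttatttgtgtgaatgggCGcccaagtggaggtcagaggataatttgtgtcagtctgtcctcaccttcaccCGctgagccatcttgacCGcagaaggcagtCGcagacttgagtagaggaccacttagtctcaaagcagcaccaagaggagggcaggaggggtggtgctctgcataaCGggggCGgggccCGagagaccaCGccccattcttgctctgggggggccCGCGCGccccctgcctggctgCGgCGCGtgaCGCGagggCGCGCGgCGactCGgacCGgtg
Krt42 (minus strand, chr11:100269902-100270201), 2 CG: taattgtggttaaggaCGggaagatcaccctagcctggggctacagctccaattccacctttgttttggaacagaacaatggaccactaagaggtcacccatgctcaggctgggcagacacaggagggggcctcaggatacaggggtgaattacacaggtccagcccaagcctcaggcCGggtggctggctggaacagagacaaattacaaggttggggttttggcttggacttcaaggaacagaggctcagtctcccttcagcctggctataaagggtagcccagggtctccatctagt
App (minus strand, chr16:85173658-85173957), 30 CG: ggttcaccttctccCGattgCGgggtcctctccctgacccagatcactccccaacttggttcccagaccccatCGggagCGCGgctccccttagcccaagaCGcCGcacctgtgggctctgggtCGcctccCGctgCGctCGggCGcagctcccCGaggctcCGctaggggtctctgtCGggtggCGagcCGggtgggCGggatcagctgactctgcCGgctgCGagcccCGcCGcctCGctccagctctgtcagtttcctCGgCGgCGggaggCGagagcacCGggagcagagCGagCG
These windows ranged from CG-poor at Krt42 to CG-rich at App, and the counts over all named genes are given further on. The lower genes with an entry, Tet1 among them, had a median of 9 CG, with the most at Ankrd37, and the other Gdf1 start had 8.

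The Tet1 signal at the probe used for the choice was 0.25 on the array labelled Tet1 KD replicate 2, against 2.00 on EGFP KD replicate 2, 2.05 on Tet1 KD replicate 1 and 1.36 on Chd4 KD replicate 1 of the same slide. On slide 1 it was 0.28 on the array labelled Mbd2 KD replicate 1, against 2.14 on EGFP KD replicate 1, 1.47 on Dnmt1 KD replicate 1 and 2.17 on Mbd3 KD replicate 1. Within their slides the picked arrays were thus 3.35-fold and 3.63-fold below the control. The slide without a control held 1.18 on Dnmt1 KD replicate 2, 1.52 on Chd4 KD replicate 2, 1.88 on Mbd2 KD replicate 2 and 1.96 on Mbd3 KD replicate 2. The other array with the Tet1 KD label and the other with the Mbd2 KD label therefore both sat near the EGFP KD arrays, at 0.02 and 0.19 below their mean.

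A second Tet1 probe, A_51_P512172, which the rule did not use, was also lowest on the same 2 arrays. It read -0.80 for the array labelled Tet1 KD replicate 2 and -1.06 for the array labelled Mbd2 KD replicate 1, with the other 10 arrays between -0.38 and 0.38. The slide-matched differences at this probe were -1.15 and -0.96. A further probe, annotated only by the accession NM_027384, which has no symbol in the gene table used, was also lowest on these 2 arrays. Its signal was -1.28 against -0.03 in the control on slide 2 and -1.20 against 0.06 on slide 1, whereas the remaining 8 arrays lay between -0.88 and 0.12. Which gene this probe reports was not established, so it may not be a gene apart from Tet1. The counts below treat it as a separate gene.

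**Figure D1:**
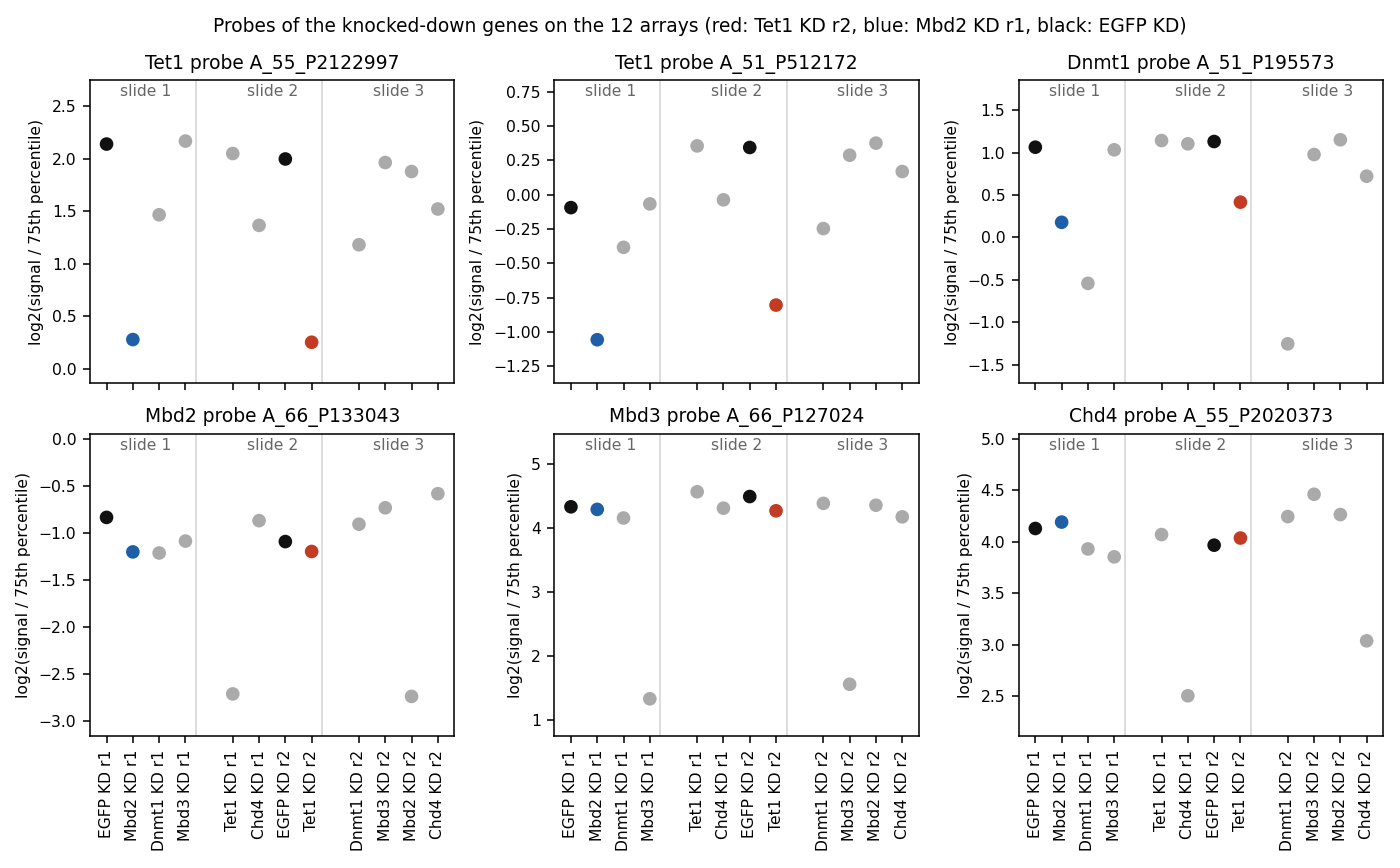
Log2 signal over the array's 75th percentile (vertical axis) of 6 probes of the knocked-down genes on each of the 12 arrays (horizontal axis, in slide order). Both Tet1 probes were lowest on the arrays labelled Tet1 KD replicate 2 (red) and Mbd2 KD replicate 1 (blue), and the Mbd2 probe A_66_P133043 was lowest on the arrays labelled Tet1 KD replicate 1 and Mbd2 KD replicate 2.

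Of the other targeted genes, Dnmt1 was lower on both arrays and Mbd2 was not low on the array that carries its label. Dnmt1 read 0.42 on the array labelled Tet1 KD replicate 2, while its control read 1.13 and Tet1 KD replicate 1 read 1.14. It read 0.18 for the array labelled Mbd2 KD replicate 1, where the control read 1.06 and the Dnmt1 KD array itself -0.54. The differences of -0.71 and -0.88 were smaller than those of the Dnmt1 KD arrays from the EGFP KD mean, at -1.64 and -2.35.

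Mbd2 had 2 probes, and they did not move alike. At A_66_P133043, the signal was -1.20 on the array labelled Mbd2 KD replicate 1 against -0.83 in its control, and -1.19 for the array labelled Tet1 KD replicate 2 against -1.09. The arrays labelled Tet1 KD replicate 1 and Mbd2 KD replicate 2 read -2.71 and -2.73, and no other array read below -1.21. At A_55_P2036526, which stands for the gene as the brighter probe, the differences were -0.55 for the array labelled Tet1 KD replicate 2 and -0.14 for the array labelled Mbd2 KD replicate 1 and both arrays with the Mbd2 KD label read -0.85. The bright Mbd3 probe differed by -0.22 and -0.04 and Chd4 by 0.07 and 0.06, so neither was low on either array. The dimmer Mbd3 probe, A_55_P1960873, differed by -0.73 and -0.26.

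Genes past a 2-fold difference (1 on the log2 scale) from the slide's control were few on either array. On the array labelled Tet1 KD replicate 2, 271 of 28410 genes were higher (0.954%) and 65 lower (0.229%). The array labelled Mbd2 KD replicate 1 had 682 of 25612 higher (2.66%) and 126 lower (0.492%). The other KD arrays of the 2 slides, taken against the same controls, passed this fold at between 2.85% of genes (Tet1 KD replicate 1) and 8.99% (Mbd3 KD replicate 1), so the array labelled Tet1 KD replicate 2 had the smallest share of the 6, at 1.18%. The EGFP KD arrays differed from each other, across slides, by this fold at 12.6% of genes, which is why each array was read within its slide.

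Most genes past the fold were dim, and for many the control was the array that stood apart. A mean log2 signal below -2 over the pair was found for 70.1% of the 271 higher and 63.1% of the 65 lower genes for the array labelled Tet1 KD replicate 2, and for 75.7% and 77.8% of those on the array labelled Mbd2 KD replicate 1. Among the 271, the KD array alone lay outside the other 3 arrays of its slide for 23 genes, the EGFP KD array alone for 133, both at opposite ends for 112 and neither for 3. The differences of Crip2 (7.97 log2) and Pkp2 (7.08 log2) on this array, named after their values were seen, belong here: EGFP KD replicate 2 was at the floor of -4.86 for both, and EGFP KD replicate 1 read 3.82 and 2.50. Among the 682 on the array labelled Mbd2 KD replicate 1, the KD array alone stood apart for 207, the control alone for 142 and both for 324. Its 126 lower genes held 89 for which the control alone stood apart and 9 for which the KD array did.

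**Figure D2:**
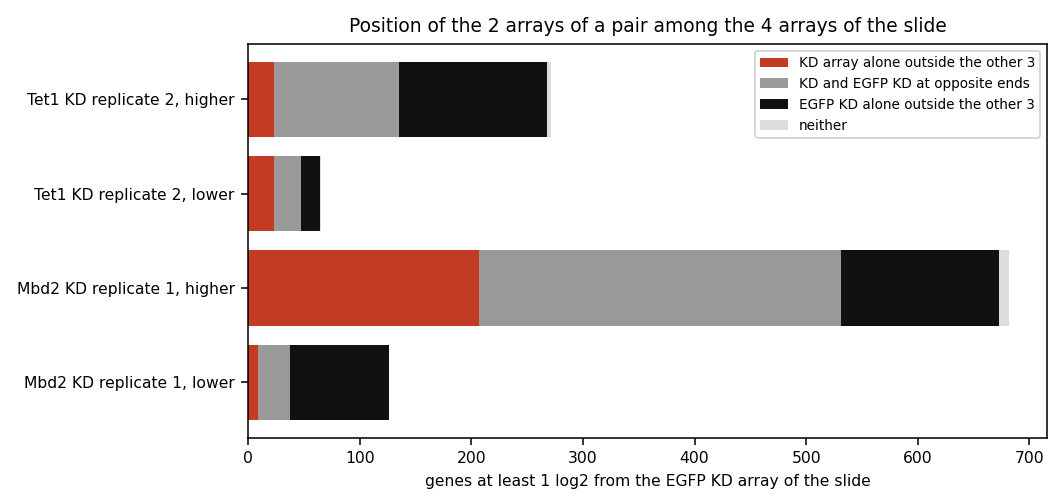
Number of genes at least 1 log2 higher or lower than the EGFP KD array of the slide (horizontal axis), divided by which array of the pair lies outside the other 3 arrays of that slide. In the 65 lower genes of the array labelled Tet1 KD replicate 2 the KD array alone stood apart in 23, against 9 of the 126 lower genes of the array labelled Mbd2 KD replicate 1.

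Only 12 genes passed the 2-fold difference the same way on both arrays. They include Tet1 at the probe used to choose the arrays, so its place in this and the following counts is no result. Of 25567 genes measured in both pairs, 5 were lower on both (0.0196%) and 7 higher on both (0.0274%), and 2 went opposite ways. The 2 pairs share no array. The 5 lower were Tet1, Cfc1 (Cryptic, a co-receptor for Nodal), Syt10 (a synaptotagmin) and 2 accessions without a symbol, NM_027384 and NM_029755. The 7 higher were Gata4 (a GATA factor of endoderm and heart), Tmem114, Trim40 and the unnamed AK014704, AK043445, BU962914 and NAP062918-1.

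Of these 12, 4 also lay outside the other 3 arrays on both slides: Tet1, NM_027384, NM_029755 and BU962914. NM_029755 read 1.32 on the array labelled Tet1 KD replicate 2 against 2.34 in its control, and 1.38 on the array labelled Mbd2 KD replicate 1 against 2.38, with the remaining arrays of these slides between 1.60 and 2.51. BU962914 read -1.74 in the control and 0.04 on the picked array of slide 2, and -2.03 and -0.38 on slide 1. On slide 2 the other KD arrays were also past 2-fold from the control, at -0.62 and -0.25, whereas on slide 1 they read -1.90 and -1.71. For the others, another array lay further out on at least 1 slide. Syt10 read -1.69 for the array labelled Tet1 KD replicate 2 and -1.42 on Tet1 KD replicate 1. On slide 1 Syt10 read 1.70 for the array labelled Mbd2 KD replicate 1 but 0.15 on Dnmt1 KD replicate 1. Its 2 controls read 0.21 and 3.18. Gata4 read between -2.64 and -2.15 on all 6 KD arrays of the 2 slides against -3.31 and -3.32 in the controls, so its differences of 1.09 and 1.14 were not particular to the arrays with low Tet1.

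**Figure D3:**
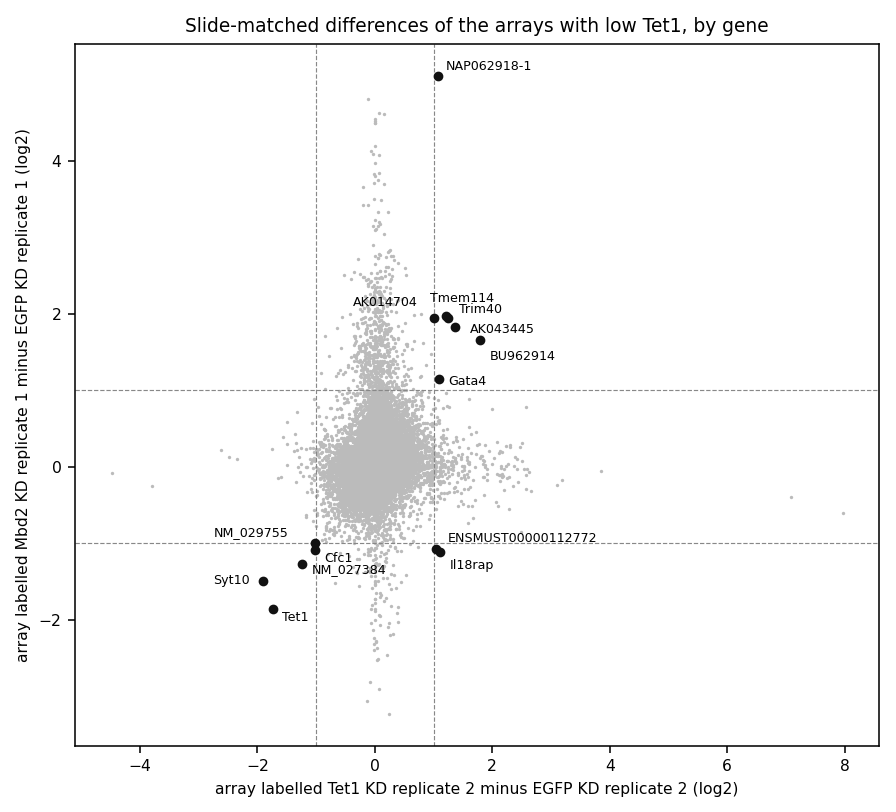
Slide-matched log2 difference of each of 25567 genes on the array labelled Tet1 KD replicate 2 (horizontal axis) and for the array labelled Mbd2 KD replicate 1 (vertical axis), with dashed lines at 1 and -1. Black points are the 14 genes past 1 log2 on both arrays, 5 of them lower on both, 7 higher on both and 2 in opposite directions, and most other genes past 1 log2 lie along a single axis.

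Across the 25567 genes, the differences of the 2 arrays had a Pearson correlation of 0.13 and a Spearman correlation of 0.25, given as a description since genes are not independent replicates. The same measure for the 8 other pairs of 1 KD array from each slide, which draw on the same 2 control arrays, ran from 0.04 to 0.21 (median 0.12, Pearson) and from 0.05 to 0.26 (Spearman). The pair with low Tet1 thus fell inside the range of pairs that do not share low Tet1. Both arrays were higher than their control at 32.8% of genes and lower at 25.1%. The 8 other pairs had between 8 and 141 genes higher and between 0 and 166 lower on both by 2-fold, against the 7 and 5 here.

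A comparison that leans less on the control array asks where each picked array lay outside all 3 other arrays of its slide. The array labelled Tet1 KD replicate 2 was above them at 30.8% of genes and below at 18%, and the array labelled Mbd2 KD replicate 1 was above at 17.8% and below at 17.9%. Both held at once for 1611 genes above (5.97% of 26969) and 1144 below (4.24%). The other 8 pairs gave 828 to 2781 above and 933 to 3502 below. Requiring a distance of at least 0.5 log2 from the nearest other array on both slides left 4 genes above (0.0148%) and 2 below (0.00742%). The other 8 pairs gave 3 to 270 above (median 17) and 1 to 207 below (median 11.5). Those 2 were Tet1 and NM_027384, and those 4 were Sall2, Sema5a, Galnt3 (which starts mucin-type O-glycosylation) and Zeb2 (a zinc finger repressor). Tet1 was 1.11 and 1.19 log2 below the nearest other array of its slides, the widest of the 6 distances on both. That rank is no result, because the arrays were chosen by this Tet1 probe.

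The 12 named genes that lay lowest on both slides, ordered by the smaller of their differences, were Tet1, Clca3b, Ankrd37, Adgrg5, Atp1a4, Krt19, Narf, Irgm1, Wbp2nl, Krt42, Zbtb32 and Gdf1. All were well above background on the 4 arrays compared, and apart from Tet1 their differences lay between -0.62 and -1.52. Ankrd37, an ankyrin repeat protein induced by hypoxia, read -0.66 on the array labelled Tet1 KD replicate 2 with the other arrays of the slide between -0.31 and 0.33, and -0.56 on the array labelled Mbd2 KD replicate 1 with the others between 0.12 and 0.32. Its differences from the control were -0.86 and -0.88. Lying outside the other arrays of both slides was part of the choice of these 12 genes.

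Gdf1, a TGF-beta family ligand that pairs with Nodal, was the brightest of these genes in the controls, at 2.17 and 2.19. It read 1.55 for the array labelled Tet1 KD replicate 2 and 1.41 for the array labelled Mbd2 KD replicate 1, with the other KD arrays of the slides between 1.78 and 2.21. A second, dimmer Gdf1 probe differed by 0.23 and 2.10, the opposite direction, so the gene's difference rests on 1 probe. Zbtb32, a BTB zinc finger repressor, read 0.44 and 0.62 against 1.23 and 1.26 in the controls. Here Chd4 KD replicate 1 (0.65) and Dnmt1 KD replicate 1 (0.70) came within 0.21 and 0.08 log2 of the picked arrays.

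The keratins Krt19 and Krt42, intermediate filament proteins of epithelia, differed by -0.82 and -1.17 for the array labelled Tet1 KD replicate 2 and by -0.77 and -0.65 on the other picked array. Krt19 read -0.89 and -1.09 on the picked arrays, -0.06 and -0.33 in their controls, and 2.12 on Chd4 KD replicate 1 and 1.19 on Mbd3 KD replicate 1. Both genes therefore spanned a wide range among the other KD arrays, on both sides of the control. Irgm1, an interferon-inducible GTPase, read -2.51 on the array labelled Tet1 KD replicate 2, within 0.05 of Tet1 KD replicate 1, but -3.18 for the array labelled Mbd2 KD replicate 1 where the other 3 arrays lay between -1.65 and -1.61. Atp1a4 (a sodium pump subunit of sperm) had 2 probes, with differences of -0.79 and -1.14 at one and -0.84 and -0.66 at the other.

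Higher on both slides, by the same rule, were Sall2, Olfr566, Zc3h6, Sobp, Chn2, App, Brinp1, Phldb2, Sema5a, Bin1, Ltbp1 and Spaca4. Their differences lay between 0.65 and 1.23. Sobp was at the floor of -4.86 in both controls, so its differences of 0.78 and 0.87 depend on where the floor was set. All but App, Bin1 and Spaca4 read below -2 in both controls, and Bin1 (a membrane-bending BAR-domain protein) was the brightest. Bin1 read 0.20 and 0.53 on the picked arrays against -0.47 and -0.17 in the controls, with Chd4 KD replicate 1 at 0.06 and Dnmt1 KD replicate 1 at 0.17 nearest to them.

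App, the amyloid precursor protein, read -1.17 on the array labelled Tet1 KD replicate 2 with the other arrays of slide 2 between -2.19 and -2.01, and -1.19 on the array labelled Mbd2 KD replicate 1 with the others between -1.96 and -1.42. On slide 3, without a control, App ran from -2.03 to -1.16. Sall2, a spalt-family zinc finger factor, read -1.54 against at most -2.44 on slide 2, and -1.61 against at most -2.14 on slide 1, where Mbd3 KD replicate 1 was far lower at -4.01. Sema5a, a semaphorin guidance cue, read -3.22 and -2.56, against -4.00 and -3.23 in the controls. On slide 3 Sema5a read between -2.70 and -2.05.

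**Figure D4:**
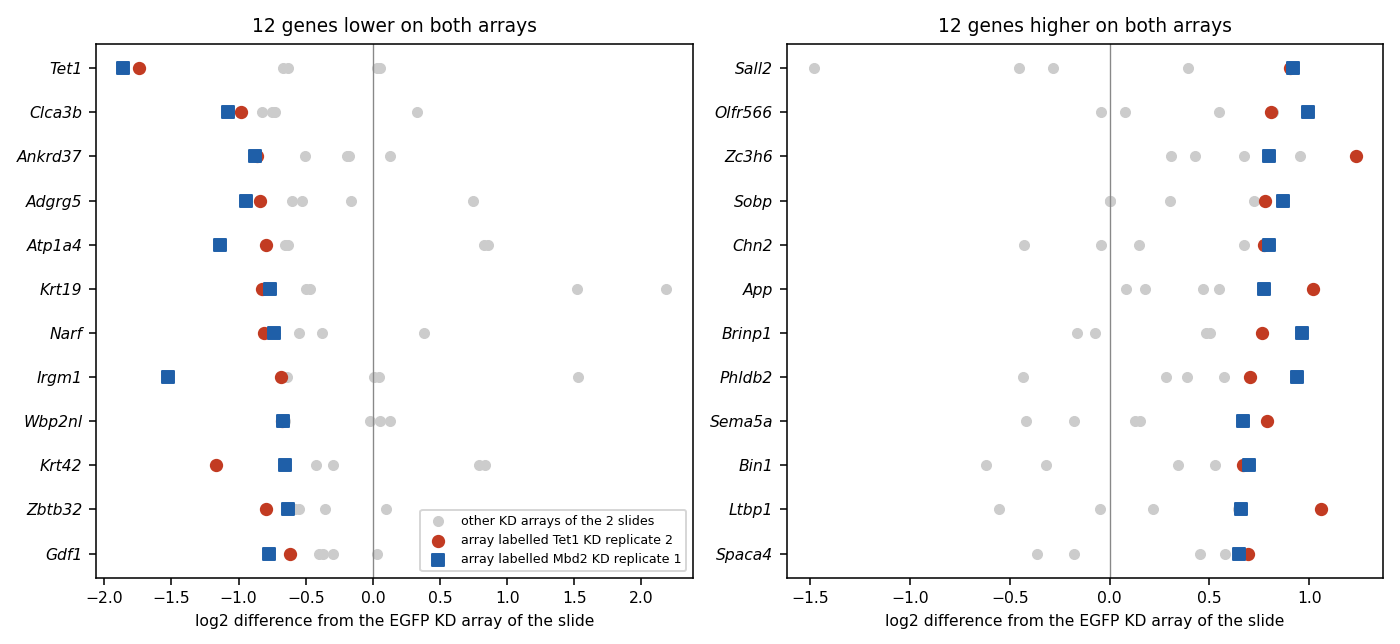
Log2 difference from the EGFP KD array of the slide (horizontal axis) for the 12 genes lowest (left) and the 12 highest (right) on both arrays, with the other 4 KD arrays of the slides in grey. Tet1, whose probe the rule used, shows the widest distance between the picked arrays (-1.74 and -1.86) and the grey points (-0.67 to 0.05).

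The 2 arrays labelled Tet1 KD lie on one slide and differ in Tet1, so they can be compared without a control array. Tet1 on replicate 2 differed from replicate 1 by -1.80, and Mbd2 probe A_66_P133043 was 1.51 higher. Of 28535 genes, 372 were higher on replicate 2 by 2-fold (1.3%) and 223 lower (0.781%). Dnmt1 differed by -0.72, NM_027384 by -1.40 and NM_029755 by -1.19. Gata4 differed by 0.03, Syt10 by -0.26 and Cfc1 by -0.61.

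Gene lists chosen for ES cells held few members past the 2-fold difference. Of 312 genes on 23 lists, 294 were kept, and 277 could be compared for the array labelled Tet1 KD replicate 2 and 261 on the array labelled Mbd2 KD replicate 1. Past the fold were 4 higher (1.44%) and 3 lower (1.08%) on the former, against 0.954% and 0.229% of all genes. On the latter 2 were higher (0.766%) and 2 lower (0.766%), against 2.66% and 0.492%. The lower genes were Tet1 and Cfc1 on both and Tcstv3 on the former. Tet1 is in these counts and shares because the arrays were chosen by it. Gata4 was higher on both, Vldlr, Brdt and Lox on the former and Foxq1 on the latter.

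Among the 11 TET dioxygenases and partners, no gene passed the fold apart from Tet1, by which the arrays were chosen. Tet2 read 1.60 and 1.37 on the picked arrays, the highest of their slides, but lay only 0.13 and 0.31 above the controls, and Tet3 differed by 0.07 and 0.11. Ogt, the O-GlcNAc transferase that binds TET proteins, differed by 0.02 and -0.68. The base excision glycosylase Tdg differed by 0.43 and -0.02. Of the DNA methyltransferase list, the de novo enzymes Dnmt3a (0.15 and 0.36) and Dnmt3b (0.04 and 0.10) and the Dnmt1 partner Uhrf1 (0.04 and -0.04) stayed close to the controls, and Dnmt1 was the widest. No methyl-CpG binding protein, NuRD subunit, Sin3 subunit or PRC2 subunit passed the fold, with list medians between -0.15 and 0.10. The 10 NuRD subunits measured, Mbd2 and Mbd3 being counted with the methyl-CpG binding proteins, differed by between -0.08 and 0.37 in the first pair and between -0.08 and 0.22 in the second.

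In the Nodal pathway, which patterns the early embryo and is active in ES cells, 8 of 14 members were lower on both arrays, against 25.1% of all genes, and the medians were -0.14 and -0.12, against 0.02 and 0.0047 over all genes. The medians of 3 of the other 4 KD arrays of the slides also lay between -0.14 and -0.12, and Chd4 KD replicate 1 had 0.06. Cfc1 read -2.70 on the array labelled Tet1 KD replicate 2 with the other arrays of slide 2 between -2.26 and -1.68, and -2.84 for the array labelled Mbd2 KD replicate 1, where Mbd3 KD replicate 1 was lower still at -2.99. Lefty1, a secreted Nodal inhibitor, read 0.33 and 0.53 on the picked arrays against 0.86 and 1.11 in the controls and was the lowest of its slide on both. Nodal itself differed by -0.43 and -0.31, and the co-receptor Tdgf1 by -0.16 and -0.05.

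No compared member of the core or naive pluripotency list passed the fold, with medians between -0.07 and 0.0013, and the 4 arrays were bright for the defining ES cell factors: Pou5f1 read between 4.62 and 5.10 and was saturated on 11 of the 12 arrays, and Sox2 between 2.32 and 2.46. Of the 11 naive factors compared, 2 were higher on both, Klf5 (0.39 and 0.41) and Klf4 (0.40 and 0.16). Klf5 was the highest of its slide on both. Another 3 were lower on both: Prdm14 (-0.29 and -0.28), Dppa3 (-0.21 and -0.11) and Fgf4 (-0.05 and -0.09). Nanog differed by -0.04 and 0.72, but its probe read between -4.58 and -3.86 on the 4 arrays, close to the floor. Of the markers of other cell types, the 9 fibroblast markers kept summed to 6.59 and 6.39 times the 75th percentile on the picked arrays against 5.91 and 5.33 in the controls, and the 10 neural markers to 4.73 and 5.00 against 4.90 and 4.80. Thy1, a surface protein of fibroblasts and other cells, read between 1.70 and 2.06 on these 4 arrays and Tubb3, a neuronal tubulin, between 0.69 and 1.16, and the part of such markers in the other results was not tested. Fbn1 was at the floor on all 4 arrays, and Lox on all but the array labelled Tet1 KD replicate 2, where it read -3.81, as on Tet1 KD replicate 1.

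Primitive endoderm markers had medians of 0.16 and 0.22, and trophectoderm markers of -0.06 and -0.16. On the other KD arrays of the slides these medians ran from -0.06 to 0.25 and from -0.10 to 0.53. Beyond Gata4, the forkhead factor Foxq1 read -3.21 for the array labelled Mbd2 KD replicate 1 and -4.32 in its control but differed by 0.23 on the other, and Gata6 (0.31 and 0.23) and Sox17 (0.15 and 0.44) differed less. Of the trophectoderm list, Krt8 read -2.37 and -1.97 against -1.49 and -1.50 in the controls and, like Krt19, was the lowest of its slide on both. Its partner Krt18 differed by only -0.06 and -0.09. In this list 8 of 14 members were lower on both arrays, against 25.1% of all genes. Among the 8, Cdx2 was at the floor on both picked arrays, and Gata3 read -4.86 and -4.70. The 3 higher on both were Eomes (0.59 and 0.25), Tfap2c (0.12 and 0.14) and Ascl2 (0.05 and 0.32). Against the same controls, 9 of 15 members were lower on Tet1 KD replicate 1 and 8 of 14 on Dnmt1 KD replicate 1. On Mbd3 KD replicate 1 it was 5 of 15, and on Chd4 KD replicate 1 it was 4 of 15.

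Genes induced through Atf4, the transcription factor of the amino acid and unfolded protein responses, had positive medians on these arrays and on 3 of the other 4 KD arrays. All 12 members compared were higher for the array labelled Tet1 KD replicate 2 and 11 on the array labelled Mbd2 KD replicate 1, with medians of 0.35 and 0.32, where 15377 of 28410 and 12995 of 25612 of all genes were higher. Only Vldlr, a lipoprotein receptor, passed the fold (1.16), on the first array, and no member did on the second. The medians were 0.45 on Tet1 KD replicate 1, 0.39 on Dnmt1 KD replicate 1 and 0.30 on Mbd3 KD replicate 1 against the same controls, and -0.21 on Chd4 KD replicate 1. Phgdh (0.72 and 0.39) and Psat1 (0.40 and 0.53), enzymes of serine synthesis, were the highest of their slide on both, whereas Nupr1 (0.80 and 0.85) and Chac1 (0.54 and 0.81) were not.

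No member of the imprinted, p53, interferon, S phase, G2/M, primed epiblast, neural or reference lists passed the fold on either array. The S phase medians were -0.09 and -0.08, less negative than the -0.11 to -0.35 of the other 4 KD arrays. Ccng1, a p53 target (-0.34 and -0.45), the interferon regulatory factor Irf1 (-0.34 and -0.33) and the homeobox gene Rhox9 (-0.40 and -0.23) were the lowest of their slide on both arrays. So were 4.24% of all genes, against 2 of 19 p53, 3 of 16 interferon and 3 of 19 germline genes kept. The highest of their slide on both were 0, 1 and 1 of these genes, against 5.97% of all genes. The interferon gene among them was Usp18 (0.29 and 0.49). Compared with the controls, 8 p53 targets were higher and 5 lower on both arrays. Brdt, a testis bromodomain protein, was 1.24 above its control on the array labelled Tet1 KD replicate 2 at a level of 0.78, below the 1.16 of Tet1 KD replicate 1, and differed by -0.07 on the other.

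**Figure D5:**
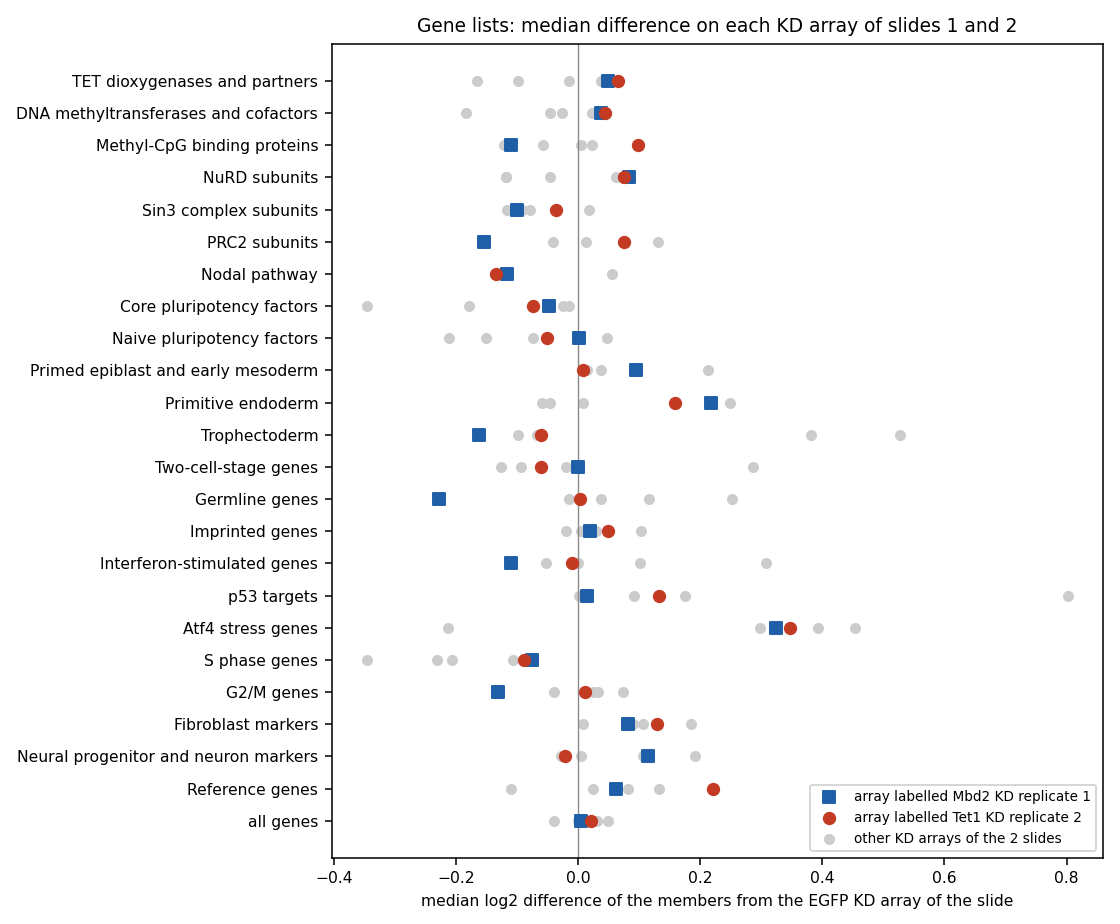
Median log2 difference from the EGFP KD array of the slide (horizontal axis) over the compared members of each gene list, with one point for each KD array of slides 1 and 2. For the Atf4 stress genes, the red (0.35) and blue (0.32) points lie among the grey points, which run from -0.21 to 0.45.

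Apart from Tet1 and Syt10, the genes with the widest differences on one array did not pass the fold on the other. Among genes with a symbol and well above background in both arrays of a pair, the 5 widest negative differences on the array labelled Tet1 KD replicate 2 were of Dnaaf2, Syt10, Tcstv3, Tet1 and Pfpl, from -2.49 to -1.64. Dnaaf2, an assembly factor for ciliary dynein, read -2.87 against -0.38 in its control, the lowest of the other arrays of the slide, and differed by 0.13 for the array labelled Mbd2 KD replicate 1. Tcstv3, a gene of the 2-cell stage, was at the floor on the former, although marked well above background by the scanner software, and differed by 0.23 on the latter. The 5 widest positive differences, of Vmn1r176, Vmn1r196, Kcna1, Slc4a4 and Doc2b, ran from 2.54 to 3.19, and on the other array these genes differed by between -0.31 and -0.02. EGFP KD replicate 2 was the lowest array of slide 2 for all of them, at the floor for Vmn1r196, Kcna1 and Doc2b, and Tet1 KD replicate 1 lay within 0.45 of replicate 2. For Pfpl, Tet1 KD replicate 1 read -2.74, below the -2.66 of replicate 2.

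On the array labelled Mbd2 KD replicate 1, wide positive differences were those of Olfr1219, Xdh, Cfap299 and Baiap2l1, from 4.08 to 4.62. Each lay at least 1.91 log2 above the other 3 arrays of the slide. For Cfap299 the control was at the floor of -4.86, so its difference of 4.13 depends on where the floor was set. Cfap299 read -0.73 on the picked array, below the arrays of slide 3, which ran from -0.63 to 0.14. Xdh (xanthine dehydrogenase) differed by 4.49 and Baiap2l1, an actin regulator, by 4.08, against 0.0049 and -0.04 for the array labelled Tet1 KD replicate 2. The 5 widest negative differences, of Cdh23, Kdm3b, Faim2, Olfr1195 and Sdccag8, ran from -2.51 to -2.04. EGFP KD replicate 1 was the highest array of slide 1 for all of them, and only for Faim2 did the picked array lie below the other 3.

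In the 300-base windows, the median was 9 CG for the 10 lower genes and 18 for the 11 higher genes that had an entry. It was 15.5 for 15237 genes with a symbol, taking the median where a gene had several starts. Tet1, with 17 CG, is counted among the lower genes although the arrays were chosen by it. At least 10 CG were found for 50% of the lower, 63.6% of the higher and 63.2% of all genes. Over the larger sets of genes outside the other arrays on both slides, the medians were 16 CG for the lower and 17 for the higher genes, and the shares were 70.2% of 661 lower and 67.6% of 848 higher genes. These are counts of letters in a window and no measure of methylation or of Tet1 binding.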

How the data were processed

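RNA from 12 ES cell samples was labelled with Cy3 and hybridised by the authors, 1 sample per Agilent 4x44K array. Per the labels, spots were quantified with Feature Extraction 10.7.1.1, and the deposited scanner output gives each spot's intensity, corrected for local background and not scaled between arrays. A further deposited table holds log-scale values relative to EGFP KD, handled as log2 although the base is not given in the sources used here, and only their directions were used.

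Here, each intensity was scaled to its array's 75th percentile, floored at 0.0344 and log2-transformed in Python 3.11.15. Control spots were left out, and of the remaining 43020 those marked as outliers. Genes took their brightest probe among those well above background on both arrays of a group, which kept 29546 genes, 19219 with a symbol from RefSeq GRCm38.p6. A gene was compared where either array of a pair was well above background and not both were saturated. Counting steps were tested on simulated data.

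The arrays, gene lists and named genes were chosen with earlier results of these data known. Named were the probes of targeted genes, the 12 genes per direction outside the other 3 arrays on both slides with the largest smaller difference, the 5 widest differences per array and direction, and list members; 1 gene is not reported here. Alternatives changed the control, normalization (with limma 3.58.1 for normexp), filter, probe rule, outlier spots and fold.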

Additional observations from a re-analysis of the deposited data

Results flagged for a closer look

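ENSMUST00000112772 and Il18rap passed the 2-fold difference in opposite directions on the 2 arrays, and the difference between the arrays was not tested. ENSMUST00000112772, which has no symbol in the table used, was 1.05 log2 higher for the array labelled Tet1 KD replicate 2 and 1.08 lower on the array labelled Mbd2 KD replicate 1 (-1.08). On slide 2 EGFP KD replicate 2 stood apart at -0.19 with the other 3 arrays between 0.60 and 0.86, and on slide 1 the array labelled Mbd2 KD replicate 1 stood apart at -0.30 with the other 3 at 0.78. Il18rap, a subunit of the interleukin-18 receptor, differed by 1.11 and -1.11, with EGFP KD replicate 2 at the floor of -4.86 and EGFP KD replicate 1 at -3.12, and was well above background on 5 of these 8 arrays.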

How the results depend on the processing

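No paired analysis was possible because each comparison is 1 array against 1 and comes from no test, and for the same reason no replicate could be left out. Genes past the fold on the array labelled Tet1 KD replicate 2 numbered 336 as reported, 1014 against the mean of both EGFP KD arrays, 3873 against the EGFP KD array of the other slide and 205 against the mean of the other 3 arrays of the slide. They numbered 114 at a difference of 1.5 log2 and 1484 at a 1.5-fold difference. On the array labelled Mbd2 KD replicate 1 the number was 808 as reported, 2944 with the control of the other slide, 413 at 1.5 log2 and 2034 at 1.5-fold. Past the fold the same way on both were 12 genes as reported, 66 with the controls exchanged between slides, 5 after normexp background correction, 2 at 1.5 log2 and 134 at 1.5-fold. With exchanged controls the correlation of the arrays became -0.66, since each difference then spans both slides in opposite order. An alternative chosen after seeing the data kept genes with a mean log2 signal of at least -2 over the pair. It gave 105 and 194 genes past the fold, a correlation of 0.23 and 1589 genes outside their slides on both arrays, against 2755. The other alternatives, among them quantile normalization, loess, the background filters and the probe rules, moved no count by over 1.5 times. Of the 24 genes named for both arrays, all kept their direction under quantile normalization and normexp, where a local background over 10 times the array's median was set to that median. Gdf1 lost its direction with a gene's probes averaged (-0.20 and 0.66) and Spaca4 with the control of the other slide (1.85 and -0.51). In the authors' table all 18 that it listed kept their direction.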
